A study of Mus musculus with 4 samples.

Results

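Cycling Lewis lung carcinoma (LLC) cells were the tumor cells of subcutaneous LLC tumors in which genes of cell division were read. In the single-cell tables a barcode was taken as such a cell where it held at least 2000 UMIs (unique molecular identifiers, 1 for each captured RNA molecule), at most 20% of them on mitochondrial genes, at least 3 UMIs of Rhox5, none of Ptprc or Csf1r, and at least 10 UMIs summed over Mki67, Top2a, Cdk1, Ccnb1, Birc5 and Ube2c. These criteria chose 9395 of 26118 LLC cells, a number to be set against 39972 barcodes within the UMI and mitochondrial limits and 55805 barcodes in all. NT gave 2485 of them, RT1 2400, RT2 1788 and RT3 2722. The measured values of the 9 genes in the rule chose the cells, so these genes are described below without a test.

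The tumors grew from LLC cells injected under the skin of C57BL/6N mice of 6 to 8 weeks. The RT group was irradiated with 24 Gy in 3 fractions of 8 Gy, and each of its 3 libraries (RT1, RT2 and RT3) came from 1 tumor. The control group (NT, mock treated) was a single library in which 3 tumors were mixed. All tumors were taken 72 h after radiation, and single-cell 3′ RNA libraries were made from the dissociated tumors with the SeekOne MM kit. The mice were described with no other allele or agent, and LLC is 1 transplanted line, so every tumor cell derives from the same culture. With 1 NT library the spread between control tumors is unknown, so no test between NT and RT was made, and those comparisons are given as the value of each library.

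A dividing cell copies its DNA in S phase and then, through G2, prepares for mitosis (M). Genes for replication are switched on by E2F factors at the entry to S phase, whereas many genes for chromosome segregation are read later, through promoter elements called CHR and CCAAT boxes that the DREAM and MuvB complexes and NF-Y bind. Ionizing radiation breaks DNA, and checkpoints hold damaged cells in G1 or G2 while the breaks are repaired. Among the genes of the rule, Mki67 encodes the Ki-67 protein of the surface of mitotic chromosomes, Top2a the topoisomerase that untangles DNA, Cdk1 and Ccnb1 the kinase and cyclin that start mitosis, Birc5 a subunit of the chromosomal passenger complex and Ube2c a ubiquitin-conjugating enzyme of the anaphase-promoting complex. Rhox5 encodes a homeobox protein that LLC cells transcribe, Ptprc the leukocyte antigen CD45, and Csf1r the receptor of macrophage colony-stimulating factor.

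Promoters of the 2 phase programs are shown first, because the letters searched in them differ between the S and G2M gene lists. The 250 bases before the start site were read from the RefSeq promoter table of the mouse build GRCm38.p6, which is not the build named for the counts. Capitals mark every match, on either strand, to the CHR letters TTTGAA, to CCAAT, or to the E2F letters TTTGGCGC, TTTCGCGC, TTTCCCGC and TTTGCCGC. Pcna (the replication clamp) and Rrm2 (a subunit of ribonucleotide reductase) were the most abundant S list genes with a match, and Hmgb2 (a chromatin protein) and Cks1b (a partner of cyclin-dependent kinases) those of the G2M list. Mcm6, a subunit of the replicative helicase, was added after its values were seen as the most abundant S list gene with an E2F match. The Pcna window is at chr2:132253181-132253430 (minus strand), that of Rrm2 at chr12:24708004-24708253 (plus), of Mcm6 at chr1:128359706-128359955 (minus), of Hmgb2 at chr8:57511593-57511842 (plus) and of Cks1b at chr3:89418292-89418541 (minus).
Pcna: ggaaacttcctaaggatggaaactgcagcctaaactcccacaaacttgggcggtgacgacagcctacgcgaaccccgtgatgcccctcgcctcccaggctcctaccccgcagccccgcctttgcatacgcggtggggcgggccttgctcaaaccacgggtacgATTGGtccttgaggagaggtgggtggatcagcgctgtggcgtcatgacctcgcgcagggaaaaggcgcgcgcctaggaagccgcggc
Rrm2: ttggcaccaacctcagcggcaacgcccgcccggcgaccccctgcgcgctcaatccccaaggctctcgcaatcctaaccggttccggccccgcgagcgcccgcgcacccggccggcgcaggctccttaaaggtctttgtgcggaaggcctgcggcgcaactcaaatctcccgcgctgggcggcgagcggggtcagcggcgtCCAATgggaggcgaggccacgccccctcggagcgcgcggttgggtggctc
Mcm6: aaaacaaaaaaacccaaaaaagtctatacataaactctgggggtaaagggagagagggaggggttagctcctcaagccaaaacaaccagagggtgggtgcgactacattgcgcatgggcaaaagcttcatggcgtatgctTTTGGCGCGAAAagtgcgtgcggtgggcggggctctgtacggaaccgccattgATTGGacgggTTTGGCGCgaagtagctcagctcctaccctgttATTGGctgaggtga
Hmgb2: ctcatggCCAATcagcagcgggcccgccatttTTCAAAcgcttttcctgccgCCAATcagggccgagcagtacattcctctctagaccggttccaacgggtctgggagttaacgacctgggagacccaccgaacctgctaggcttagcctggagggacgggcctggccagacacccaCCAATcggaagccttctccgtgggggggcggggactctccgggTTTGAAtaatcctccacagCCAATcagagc
Cks1b: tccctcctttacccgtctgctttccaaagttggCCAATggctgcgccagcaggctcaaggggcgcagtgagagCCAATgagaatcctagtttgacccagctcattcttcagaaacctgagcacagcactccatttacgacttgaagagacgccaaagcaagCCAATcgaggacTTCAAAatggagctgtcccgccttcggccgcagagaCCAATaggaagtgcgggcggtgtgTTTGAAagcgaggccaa

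Over the 300 bases from 250 before to 50 after the start site, 29 of the 42 G2M list genes matched to the table held TTTGAA on either strand (69.0%), against 6 of 32 S list genes (18.8%) and 20.2% of all 27025 genes of the table. The E2F letters were found in 14 of the 32 S list genes (43.8%), in 2 of the 42 G2M list genes (4.76%) and in 2.60% of all genes. CCAAT was common to both lists, with 22 S list genes (68.8%) and 32 G2M list genes (76.2%) against 41.1% of all genes. A further CHR form, TTCGAA, stood in 1 S list gene (3.12%), 3 G2M list genes (7.14%) and 1.80% of all genes. Hmgb2 and Cks1b each held TTTGAA on both strands, 30 and 17 bases before the start for the copies nearest to it, and 4 CCAAT matches. In Mcm6 the E2F letters were matched at 3 positions, of which a pair overlap. A match of letters is a description of the sequence and not a measured binding site.

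The libraries held between 69667759 (NT) and 108699844 (RT2) UMIs, with 78585759 in RT1 and 85660188 in RT3. The RT2 table had been prepared differently from the others. It listed 18605 genes where the other tables listed 32285, and its highest mitochondrial share was 11.95%, where the others reached between 91.5% and 97.0%. The 18605 genes common to all tables were used, and each result is given for RT2 on its own. Any pair of libraries shared between 182 and 277 barcode sequences, and between 3 and 15 among the cycling cells. A cycling cell held a median of 11509 UMIs in NT, 9540.5 in RT1, 15760.5 in RT2 and 10714.5 in RT3, on 3452, 3116, 4032.5 and 3273.5 genes. The UMI medians were 1.82-fold, 1.81-fold, 2.06-fold and 1.91-fold those of the non-cycling LLC cells of the same library, which met the same gate with 0 or 1 UMI of the 6 division genes (10789 cells). Another 5934 LLC cells held 2 to 9 UMIs of these genes and stand in neither class.

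Other cell types were checked through marker lists. In the cycling cells the 10 macrophage markers summed to 40.3 CPM in NT, 129 in RT1, 144 in RT2 and 89.9 in RT3, where CPM are the UMIs of a gene in each 1000000 UMIs summed over the cells named. In barcodes outside the gate the same sum was 8273 CPM in NT, 20193 in RT1, 20392 in RT2 and 12202 in RT3. These barcodes numbered 1881 in NT, 3961 in RT1, 4936 in RT2 and 3076 in RT3. They need not all be of other cell types, since they include barcodes with 1 or 2 UMIs of Rhox5 and none of Ptprc or Csf1r. With a Rhox5 threshold of 1 UMI, LLC cells numbered 6877 in NT (6050 at 3 UMIs) and 7302 in RT1 (6475). In RT2 they numbered 6756 (6234) and in RT3 8444 (7359). All 10 macrophage markers had UMIs in the cycling cells of every library, led by Lyz2 in the RT libraries (61.8, 68.1 and 35.2 CPM) and by Cd14 in NT (21.8 CPM), while Ptprc and Csf1r are 0 by the rule. Every RT library lay above NT in this sum and in the neutrophil list (2.54 CPM in NT, 12.2 in RT1, 12.8 in RT2 and 6.36 in RT3) and the lymphocyte list (2.60 CPM in NT, 9.67 in RT1, 6.82 in RT2 and 4.08 in RT3). The fibroblast list gave 238 CPM in NT, 482 in RT1, 328 in RT2 and 568 in RT3, most of it Dpt. Dpt alone was at 168 CPM in NT, 371 in RT1, 271 in RT2 and 474 in RT3. In the non-cycling LLC cells Dpt was at 672 CPM in NT, 1099 in RT1, 1052 in RT2 and 1214 in RT3. In barcodes outside the gate it was at 287 CPM in NT, 304 in RT1, 248 in RT2 and 544 in RT3. Whether LLC cells or fibroblasts gave the Dpt RNA of the cycling cells was not tested. Endothelial, dendritic and erythroid markers summed to at most 11.3, 8.75 and 1.45 CPM in any library. No doublet caller was run. The gate on Ptprc and Csf1r leaves mixtures in which neither gene was read. The barcodes removed by this gate alone numbered 44 in NT, 182 in RT1, 161 in RT2 and 91 in RT3. Cycling cells with 2 or more UMIs of any marker list other than the fibroblast list numbered 271 of 2485 in NT (10.9%), 700 of 2400 in RT1 (29.2%), 906 of 1788 in RT2 (50.7%) and 584 of 2722 in RT3 (21.5%). Deeper cells reach 2 UMIs sooner, and the median depth was 15760.5 UMIs in RT2 and 9540.5 in RT1. These shares therefore do not count mixtures and do not compare libraries at equal depth.

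At the edge of the rule, cells with 9 UMIs of the 6 genes stood just outside and cells with 10 just inside. NT had 112 cells just outside and 94 just inside, with S list levels of 5491 and 5439.9 CPM and G2M list levels of 5990.1 and 6138 CPM. In RT1, RT2 and RT3 there were 107, 64 and 134 cells just outside and 135, 70 and 141 just inside. The G2M list level was 5909.6 CPM just outside and 7063 CPM just inside in RT1, 4652 and 4715 CPM in RT2, and 5776 and 5978 CPM in RT3. The macrophage marker sum was 53.1 CPM just outside and 37.1 CPM just inside in NT, 114 and 290.1 CPM in RT1, 127 and 123 CPM in RT2, and 98.6 and 62.3 CPM in RT3. RT1 had the widest step at this edge in both. At the Rhox5 threshold NT had 52 cells with 2 UMIs, just outside, and 88 with 3 UMIs, just inside, and RT1, RT2 and RT3 had 55, 23 and 78 just outside and 94, 37 and 112 just inside. The threshold cuts a continuous range of UMIs.

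The share of LLC cells that were cycling was 41.1% in NT (39.8 to 42.3%, exact Clopper-Pearson 95% interval), 37.1% in RT1, 28.7% in RT2 and 37.0% in RT3. All 3 RT libraries lay below NT, RT2 the furthest, with a mean of 34.2% ± 4.82 (SD, n = 3). The difference of the means was -6.83 percentage points, and -4.05 without RT2. Intervals on single libraries cover counting error only and not the spread between tumors. Of all barcodes within the limits, which other cells and their recovery also set, cycling LLC cells made up 31.3% in NT and 23% in RT1, 16.0% in RT2 and 26.1% in RT3. The summed level of the 6 genes over all LLC cells, which does not depend on the threshold, was 1582 CPM in NT, 1373 in RT1, 996.8 in RT2 and 1324 in RT3. Again every RT library lay below NT, and the mean of the RT libraries was 1231 ± 205 CPM. Fewer dividing cells and less of this RNA per cell cannot be told apart in that sum.

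**Figure D1:**
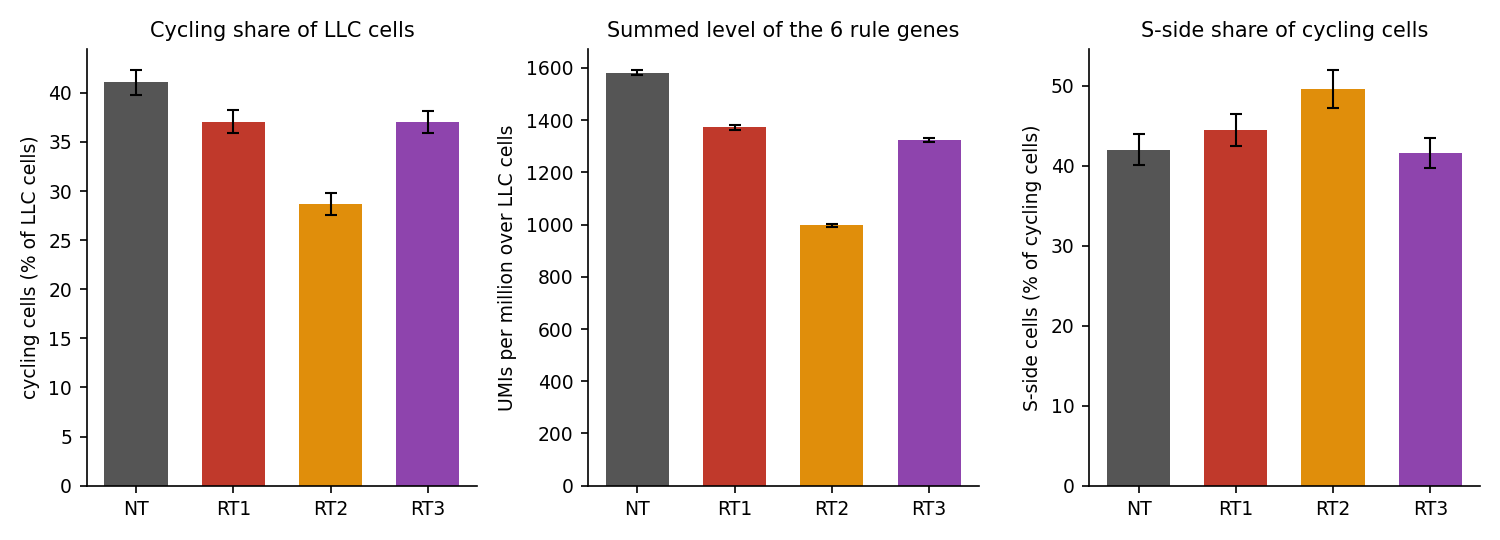
Share of LLC cells that are cycling (left, %), summed level of the 6 rule genes over LLC cells (middle, CPM) and share of cycling cells on the S side (right, %) in NT, RT1, RT2 and RT3. Bars start at 0, whiskers are exact 95% intervals (Clopper-Pearson or Poisson, counting error only), and the cycling share runs from 28.7% in RT2 to 41.1% in NT.

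The genes of the rule did not move alike over LLC cells. Mki67 was at 109 CPM in NT, 69.3 in RT1, 44.3 in RT2 and 68.8 in RT3, and every RT library lay below NT. Top2a lay below NT in every RT library too, at 494 CPM in NT, 381 in RT1, 223 in RT2 and 339 in RT3. Birc5 was at 327 CPM in NT, 259.9 in RT1, 221 in RT2 and 292 in RT3 and Cdk1 at 344 CPM in NT, 337 in RT1, 251 in RT2 and 315 in RT3, in both cases with RT2 lowest and NT highest. Ccnb1, at 165 CPM in NT, 165 in RT1, 103 in RT2 and 157 in RT3, differed from NT mainly in RT2. Ube2c was the exception, since all 3 RT libraries lay above NT (143 CPM in NT, 161 in RT1, 154 in RT2 and 152 in RT3). Within the cycling cells, where the rule sets a minimum for the sum and not for each gene, Mki67, Top2a and Birc5 again lay below NT and Ube2c above it in every RT library. Birc5 was at 548 CPM in NT, 458 in RT1, 471 in RT2 and 504 in RT3. Mki67 was at 179 CPM in NT, 121 in RT1, 93.3 in RT2 and 117 in RT3, Top2a at 859.9 CPM in NT, 694 in RT1, 469.9 in RT2 and 604 in RT3 and Ube2c at 256 CPM in NT, 306 in RT1, 343 in RT2 and 282 in RT3. A cycling cell held a median of 27 UMIs of the 6 genes in NT, 22 in RT1, 29 in RT2 and 23 in RT3, counts that are not corrected for depth. As a level the 6 genes together were at 2712 CPM in NT, 2476 in RT1, 2117 in RT2 and 2335 in RT3 in these cells, with RT2 lowest. Rhox5 was at 1135 CPM in NT, 1396 in RT1, 1312 in RT2 and 1252 in RT3 in the cycling cells, with each RT library above NT.

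The cycling cells were divided into an S side and a G2M side. For each cell the share of UMIs on 44 S phase genes and on 49 G2M genes was divided by its mean over the cycling cells of all libraries, and the larger of the ratios set the side. The division by the mean centres the ratios, so the shares of the sides compare libraries and do not measure how many cells are in a phase. The ratios ran against each other, with a Pearson correlation over cells of -0.49 in NT, -0.34 in RT1, -0.40 in RT2 and -0.33 in RT3, given as a description because the UMIs of a cell share its depth. S-side cells made up 42.0% of the cycling cells in NT (40.1 to 44.0%), 44.5% in RT1, 49.6% in RT2 and 41.6% in RT3. RT1 and RT2 lay above NT and RT3 just below it, and the mean in RT of 45.2% ± 4.08 (SD, n = 3) was 3.21 percentage points above NT, a gap smaller than the SD of the RT libraries. After thinning every cell to 2000 UMIs the shares were 43.2% in NT and 46.5%, 51.0% and 43.8% in RT. Cells within 0.1 of the cut made up 8.93% in NT and 12.9%, 11.9% and 12.9% in the RT libraries. Cells low in both lists (ratios of at most 1) were 18.2% in NT, 23.1% in RT1, 31.3% in RT2 and 27.0% in RT3, and cells with both ratios above 1 were 12.1%, 14.2%, 5.76% and 10.3%.

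**Figure D2:**
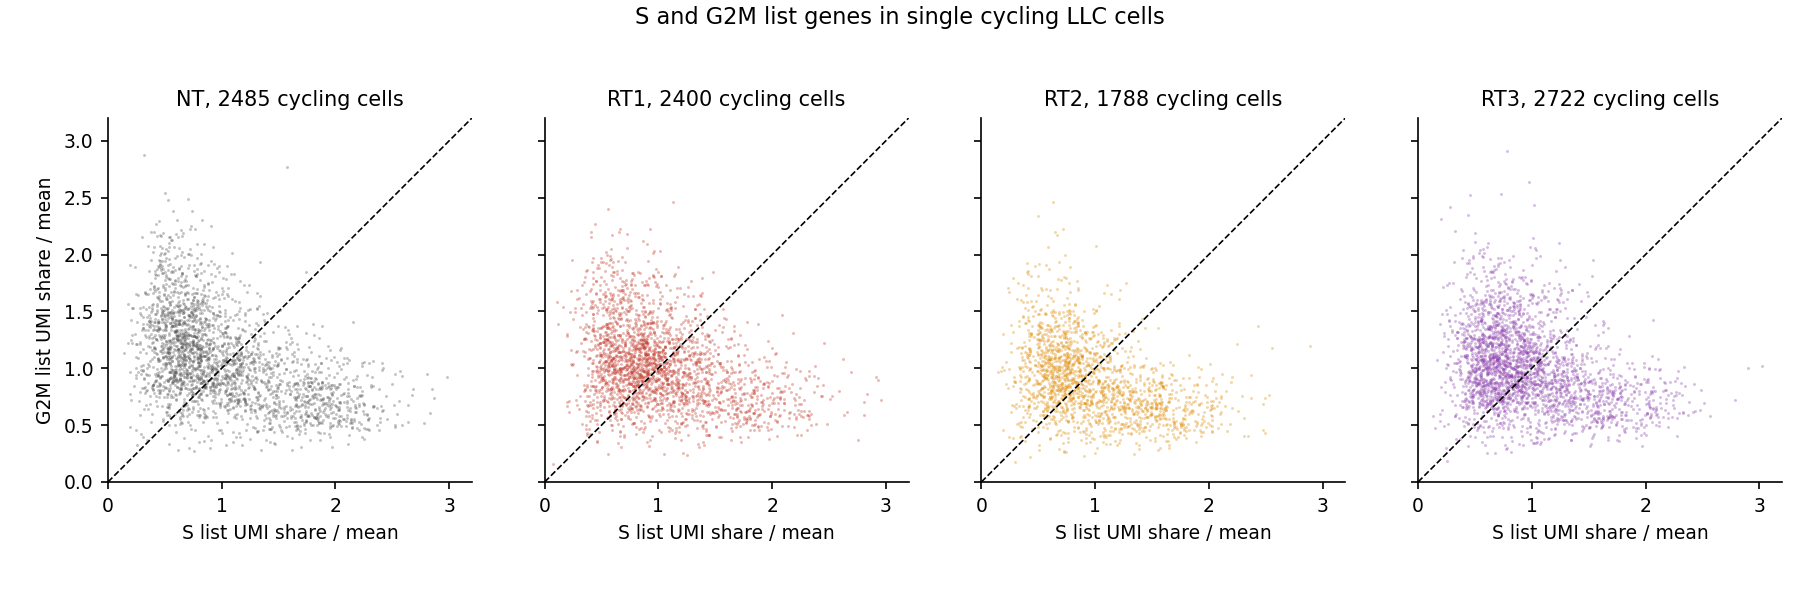
Each point is 1 cycling LLC cell, with its share of UMIs on the S list (x) and on the G2M list (y), each divided by the mean over the cycling cells of all libraries. The dashed line is the cut between the S side (below) and the G2M side (above), 3 points beyond 3.2 are not drawn, and in each of the 4 libraries the cloud bends from high G2M with low S to high S with low G2M.

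The sides were chosen by these lists, so their genes are a description. Pcna was at 1248, 1009, 932 and 969 CPM on the S side of NT, RT1, RT2 and RT3 and at 401, 420.1, 365 and 423 CPM on the G2M side. Rrm2, which makes deoxynucleotides, was at 729.8, 634, 611 and 644 CPM on the S side and 248, 276, 248 and 259 CPM on the G2M side. In both genes the lowest S-side value lay above the highest G2M-side value. The G2M list genes Hmgb2 and Cks1b were nearer to each other on the 2 sides, with Hmgb2 at 897, 882, 878 and 776 CPM on the G2M side and 658, 667, 634 and 575 CPM on the S side, and Cks1b at 787, 829, 739 and 794 and 575, 633, 575 and 636 CPM. Of the genes in the cell rule, Ube2c (367, 426, 528 and 383 CPM on the G2M side, 100.2, 162, 166 and 145 CPM on the S side) and Ccnb1 (402, 408, 336 and 382 and 137, 185, 123 and 157 CPM) were far higher on the G2M side, while Top2a (913, 734, 525 and 661 and 785, 647, 417 and 527 CPM) overlapped between the sides across libraries.

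Outside these lists, 1549 of 11532 genes were higher on the G2M side (13.4%) and 1658 were lower (14.4%) in edgeR's quasi-likelihood test on sums per library and side with the library as a block (Benjamini-Hochberg adjusted p under 0.05), or 27.8% in either direction. DESeq2 called 703 and 805 genes, and 591 and 570 passed edgeR's test after thinning each cell to 2000 UMIs. At least 2-fold changes were rarer, with 47 genes higher (0.408%) and 29 lower (0.251%). The sides were defined by UMIs of the same cells, so genes that follow the cycle were bound to differ, and the test describes which did. Plk1, the mitotic polo-like kinase, was at 237, 211, 177 and 199 CPM on the G2M side of NT, RT1, RT2 and RT3 and 77.0, 82.5, 60.5 and 68.8 CPM on the S side (log2 fold change 1.53 ± 0.04, SE). No S-side value reached the lowest G2M-side value. Prr11 (1.61), Arl6ip1 (1.43), the spindle pole gene Aspm (1.35), the kinesin gene Kif20a (1.25), the securin gene Pttg1 (1.21), Depdc1a (1.21) and Fam83d (1.20) completed the 8 genes with the largest log2 rise among those at 50 CPM or more on the higher side and changed alike in all 4 libraries. Adjusted p in edgeR's test for these genes was at most 4.49e-12.

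By the same limits of level and direction, the 8 largest decreases on the G2M side included genes of replication. Cdt1, which licenses replication origins, was at 313, 296, 259 and 264 CPM on the S side of NT, RT1, RT2 and RT3 and 147, 175, 141 and 172 CPM on the G2M side (log2 fold change -0.82 ± 0.05). Its levels on the 2 sides did not overlap. Others among the 8 were Tcf19 (-1.49), Zfp367 (-1.08), the CDK inhibitor gene Cdkn1a (-0.86), the gene of the PCNA-binding protein Pclaf (-0.84), the DNA ligase gene Lig1 (-0.83) and Rpa1 of the single-strand DNA binding complex (-0.80), with adjusted p at most 9.96e-10 in edgeR's test. All 22 nucleotide and one-carbon synthesis genes were lower on the G2M side, where 14.4% of all genes were lower and 13.4% higher. Of 36 DNA damage and repair genes 21 were lower on the G2M side and 2 higher, the latter H2afx (0.69), which encodes the histone marked at DNA breaks, and the checkpoint kinase gene Chek2 (0.41).

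Other groups split between the sides, to be read against 13.4% of all genes higher and 14.4% lower on the G2M side. Of 27 cyclin, CDK and regulator genes 9 were higher on the G2M side, among them Cdc25b (1.06), the phosphatase that activates CDK1, and 15 were lower, among them the G1/S genes Ccne1 (-1.59) and E2f1 (-1.34). The chromatin and histone supply list, which also holds the tubulin genes Tuba1b and Tubb5 and the microtubule regulator gene Stmn1, divided 8 to 8 of 21, with cohesin's Rad21 (0.49) higher and the maintenance methyltransferase Dnmt1 (-0.63) lower on the G2M side. Of 32 interferon response genes 11 were higher on the G2M side and 1 (Ifit2) lower, all by less than 2-fold. MHC class I genes gave 5 higher and none lower of 14, with H2-K1 at 0.25. Ribosome biogenesis genes gave 1 higher, Myc (0.10), and 11 lower of 19. The hypoxia and glycolysis list had 3 higher and 10 lower of 25, the matrix list 6 and 3 of 20, the secreted ligand list 4 and 9 of 22, and the p53 target list, at shares near those of all genes, 3 and 4 of 26.

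Cycling and non-cycling LLC cells of the same libraries differed over much of the transcriptome. Of 12331 genes 3643 were higher in the cycling cells (29.5%) and 4397 lower (35.7%) in edgeR's quasi-likelihood test on 8 sums, with the library as a block and Benjamini-Hochberg adjusted p under 0.05, or 65.2% in either direction. With no replicate block 1962 genes were higher and 2140 lower. At least 2-fold differences were found, with the block, for 760 genes higher (6.16%) and 749 lower (6.07%), and the median over all genes was a log2 fold change of -0.05. The classes were set by UMIs of 6 division genes in the same cells, and deeper cells reach 10 UMIs sooner, so the S and G2M lists describe the classes and are no separate evidence for them. All 44 S list genes were higher (median log2 fold change 2.34) and all 49 G2M list genes (median 4.09). Because the rule chose the cells on division genes, this direction does not test the name given to the cells.

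Among genes at 50 CPM or more in the higher class and changed alike in all 4 libraries, the largest rises were in mitotic genes. Ccna2, the cyclin A2 of S phase and G2, was at 561, 478, 376 and 442 CPM in the cycling cells of NT, RT1, RT2 and RT3 and 8.28, 11.002, 3.93 and 9.89 CPM in the non-cycling cells (log2 fold change 5.78 ± 0.17, SE). Hmmr, of the mitotic spindle, was at 124, 129.5, 90.3 and 118 against 1.499, 2.59, 0.821 and 2.29 CPM (log2 fold change 5.98 ± 0.14). In both genes each cycling value lay far above all non-cycling values. Nusap1 of spindle microtubules (5.80), Depdc1a (5.67), Pimreg (5.66), Plk1 (5.64), the kinetochore genes Nuf2 (5.56) and Ndc80 (5.32), the Aurora kinase gene Aurkb (5.53), the mitotic kinase gene Pbk (5.43), Cep55 of abscission (5.36) and the spindle kinesin gene Kif11 (5.01) were the other 10 genes of largest log2 change. Hmmr, Nusap1, Pimreg, Nuf2, Aurkb, Ndc80 and Kif11 belong to the G2M list. The cells were chosen on mitotic genes, so rises in other mitotic genes were bound to be found. The 12 genes describe the classes, and their p-values are not given for that reason.

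The largest decreases in the cycling cells, by the same limits of level and direction, included genes of the matrix and of innate defense. Fn1, which encodes fibronectin, was at 149.6, 491, 251 and 376 CPM in the cycling cells and 972, 1740.0, 1295 and 1085 CPM in the non-cycling cells of NT, RT1, RT2 and RT3 (log2 fold change -2.19 ± 0.16). Rsad2, the antiviral gene of viperin, was at 15.8, 26.9, 42.2 and 45.6 against 58.7, 94.1, 244 and 187 CPM (log2 fold change -2.17 ± 0.10). In neither gene did the cycling values overlap the non-cycling values. Islr (-2.48), Ramp2 (-2.42), the matrix genes Lum (-2.24), Fbn1 (-2.19), Thbs1 (-2.08) and Sned1 (-1.87), the selenium carrier gene Selenop (-2.00), the ceruloplasmin gene Cp (-1.99), the interferon-induced Ifit1 (-1.95) and the complement gene C3 (-1.93) made up the rest of the 12 largest decreases within these limits. Adjusted p in edgeR's test was at most 8.94e-07 among them, and Lum alone passed the threshold no longer when the library block was left out (adjusted p 0.0555). Macrophage markers were lower too (9 of 10, against 35.7% of all genes, Lyz2 -0.80), as were all 3 fibroblast markers tested (median -0.82). The part of RNA from these cell types in the lower matrix and interferon levels was not tested.

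**Figure D3:**
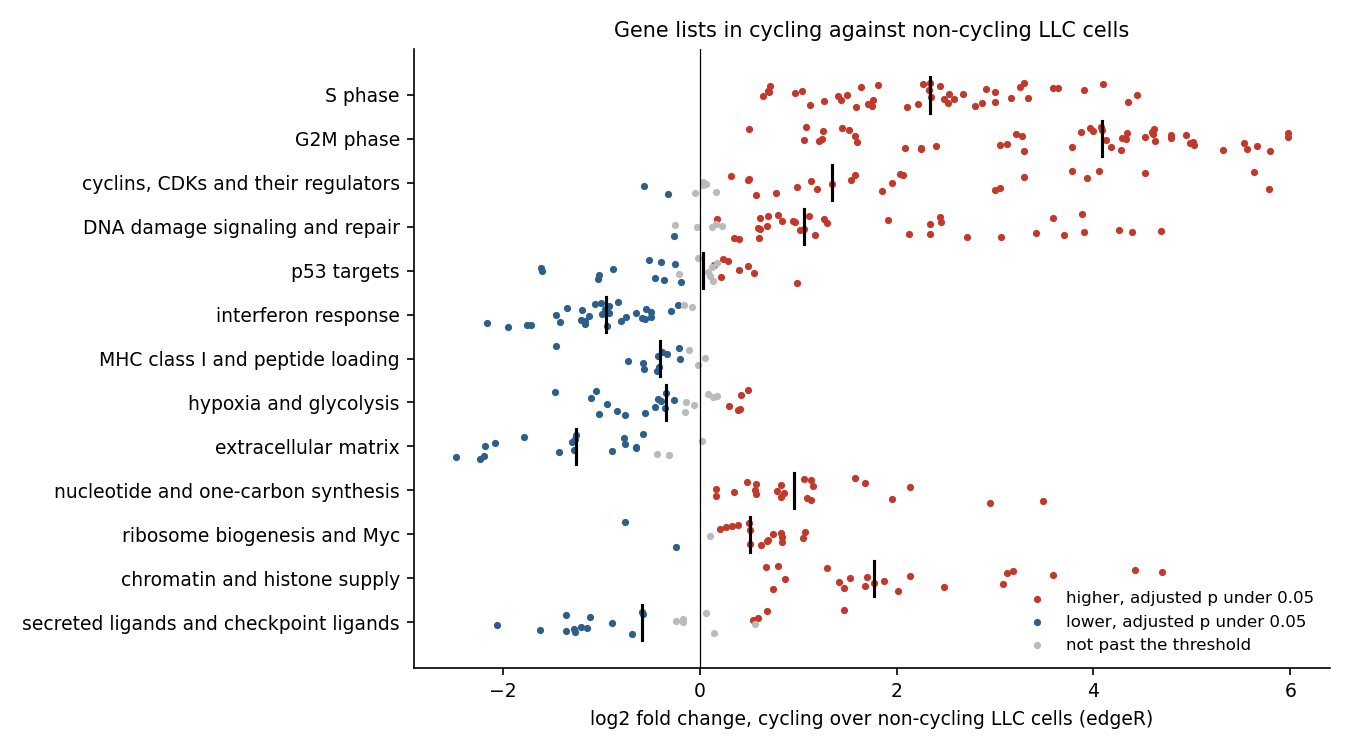
Log2 fold change of each gene in 13 lists, cycling over non-cycling LLC cells (edgeR, library as block). Red and blue points passed the adjusted p threshold of 0.05, grey points did not, and black bars are list medians, from 4.09 (G2M phase) to -1.26 (extracellular matrix).

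Regulators of the cycle were mostly higher in the cycling cells, with 24 of 31 cyclin, CDK and regulator genes higher and 2 lower. Beside Ccna2 and Plk1 the list was led by Cdc25c (4.53), the mitotic transcription factor genes Mybl2 (4.05) and Foxm1 (3.78), and the repressor gene E2f7 (3.94). The G1 genes Ccnd1 (0.57) and Cdk4 (0.78) were less than 2-fold higher. The CDK inhibitor gene Cdkn1a was higher, at 24.4, 49.0, 47.3 and 40.6 CPM in the cycling and 8.60, 26.3, 20.4 and 23.6 CPM in the non-cycling cells of NT, RT1, RT2 and RT3 (log2 fold change 0.99 ± 0.10, adjusted p 1.36e-05 in edgeR's test), although the classes overlapped across libraries. Cdkn1b, which encodes the inhibitor p27, was lower (-0.56), as was Ccnd2 (-0.32). Of the p53 targets 8 of 26 were higher and 11 lower, shares near the 29.5% and 35.7% of all genes, with Trp53inp1 (-1.61) and Btg2 (-1.60), an antiproliferative gene, lowest and Cdkn1a the only one near 2-fold higher.

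Most repair and supply genes were higher in the cycling cells, where 29.5% of all genes were higher and 35.7% lower. Of 41 DNA damage and repair genes 35 were higher and 1 (Trp53bp1, -0.26) lower, led by Fancd2 of crosslink repair (4.68), Rad54l of homologous recombination (4.39) and Brca1 (3.70). Xrcc5 (0.12), Prkdc (-0.03) and Lig4 (0.22), which act in end joining, did not pass the threshold. All 22 nucleotide and one-carbon synthesis genes were higher (median 0.96), from Atic (0.16) to Tk1 (3.48), the thymidine kinase. All 21 genes of the chromatin and histone supply list were higher (median 1.77), among them Ezh2 (1.87), the H3K27 methyltransferase, and Dnmt1 (1.53). Ribosome biogenesis genes gave 16 higher and 2 lower of 19 (median 0.51), the latter being Myc (-0.25) and its target Odc1 (-0.76). A list of 25 sterol synthesis and uptake genes, put together after the RT values were seen, had 22 higher and none lower (median 0.78).

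Interferon response, MHC class I, matrix and ligand genes included more lower than higher members in the cycling cells, against 35.7% of all genes lower and 29.5% higher. Of 32 interferon response genes 30 were lower and none higher (median -0.95), beside Rsad2 and Ifit1 for example Irf7 (-1.42), Isg15 (-1.16) and Cxcl10 (-1.19). The MHC class I list had 11 of 14 lower (median -0.40), among them B2m (-0.41) and H2-D1 (-0.57), whose reads near-identical H2 genes may share. In the matrix list 17 of 20 were lower and none higher (median -1.26). All 3 fibroblast markers tested were lower too (median -0.82), and their part in the matrix list was not tested. Of 23 secreted and checkpoint ligand genes 13 were lower and 4 higher. Il6 (-2.06), Ccl7 (-1.63), Ccl2 (-1.27), Cxcl1 (-1.27) and Cd274 (-1.36), which encodes PD-L1, were among the lower ones, and the higher ones were Hmgb1 (1.46), Raet1d (0.68), Mif (0.59) and Areg (0.54). Csf1, the macrophage growth factor, was at 157, 218, 191 and 238 CPM in the cycling and 301, 311, 291 and 307 CPM in the non-cycling cells (log2 fold change -0.69 ± 0.08). Hypoxia and glycolysis genes divided into 5 higher, such as Ldha (0.39), and 14 lower, such as Slc2a1 (-0.84) and Vegfa (-0.76), of 25.

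RT and NT cycling cells were set side by side without a test. A gene was counted where its log2 ratio to NT was at least 1 in the same direction in each of the 3 RT libraries and it had at least 20 UMIs in the larger of the NT sum and the smallest RT sum. By this rule of size 281 of 11611 genes were higher in RT (2.42%) and 31 lower (0.267%), while 3314 (28.5%) lay above NT in every RT library by any amount and 3873 (33.4%) below. Most of the higher genes were rare, since 199 of the 281 had an RT mean under 10 CPM, and their median was 0.932 CPM in NT and 3.36 CPM in RT. In the non-cycling cells of the same libraries 219 of 11004 genes were 2-fold higher (1.99%) and 34 lower (0.309%). In the cycling cells a minimum of 100 UMIs gave 128 higher and 18 lower genes. Thinning each cell to 2000 UMIs gave 142 and 20, of which 99 and 11 were among the 281 and 31. With 1 RT library left out, a gene has to pass in 2 libraries only. The higher genes were then 345 without RT1, 364 without RT2 and 509 without RT3, and the lower genes 40, 88 and 41. What sets these counts apart was not tested.

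Sterol genes made up 10 of the 31 lower genes. Of the genes at 100 CPM or more in NT or in the RT mean, 7 passed the rule downwards, and all 7 belong to cholesterol synthesis and uptake. This list was chosen after the values were seen, so its direction is a description. Cyp51, the lanosterol demethylase, was at 302 CPM in NT, 109 in RT1, 69.9 in RT2 and 106 in RT3 (log2 ratio -1.70 ± 0.36, mean and SD of 3 RT libraries), with an exact 95% Poisson interval of 296 to 308 CPM in NT. Msmo1, the next enzyme of demethylation, was at 306 CPM in NT, 125 in RT1, 83.1 in RT2 and 121 in RT3. In both genes every RT library was below NT by at least 2-fold, and RT2 was the lowest.

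Other members spanned the pathway. Sqle, the squalene epoxidase, also past the rule, had a mean log2 ratio of -1.46, Idi1 of isoprenoid synthesis -1.38, Nsdhl -1.39, Acat2 -1.24, Fdft1 (squalene synthase) -1.20, Mvd -1.55 and Insig1, the anchor of the sterol sensor, -1.24. Of the 25 genes of the list 10 passed the rule, against 0.267% of all genes. Srebf2, which encodes the factor that drives the pathway, was at 148 CPM in NT, 90.6 in RT1, 78.3 in RT2 and 95.1 in RT3, below NT in every RT library but by less than 2-fold. Ebp (7.68 CPM in NT, 24.4 in RT1, 36.9 in RT2 and 14.4 in RT3) and Fdps (58.3 CPM in NT, 90.4 in RT1, 106 in RT2 and 61.7 in RT3) went the other way in every RT library. Over the list 21 of 25 genes lay below NT in every RT library and 2 above, against 33.4% and 28.5% of all genes, with medians of -0.75, -1.12 and -1.07 in RT1, RT2 and RT3 where all genes had 0.00, -0.05 and -0.04.

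The same genes were low in RT outside the cycling cells. In the non-cycling LLC cells Cyp51 was at 188 CPM in NT, 52.0 in RT1, 26.4 in RT2 and 61.1 in RT3, and the median of the list was -1.06 with 21 of 25 genes below NT in every RT library, against 34.1% of all genes, and 4 above, against 26.7%. There 10 of the list were 2-fold lower in every RT library, against 0.309%, and 1 higher, against 1.99%. In the barcodes outside the gate Cyp51 was at 173 CPM in NT, 61.6 in RT1, 49.9 in RT2 and 65.8 in RT3, and the median was -0.77 with 20 of 24 genes below NT in every RT library, against 36.9% of all genes, and 2 above, against 25.7%. Of these 24 genes 3 were 2-fold lower in every RT library, against 0.579% of all genes there, and 1 was 2-fold higher, against 2.54%. The 3 classes come from the same libraries and share their NT, so they are not separate observations of the ratio. The barcodes outside the gate include some with 1 or 2 UMIs of Rhox5, so they are not a class of other cell types only. In each of the 4 libraries the cycling cells had the highest Cyp51 level of the 3 classes. Across alternative settings the median in the cycling cells ran from -0.85 without RT2 to -1.18 without RT1.

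**Figure D4:**
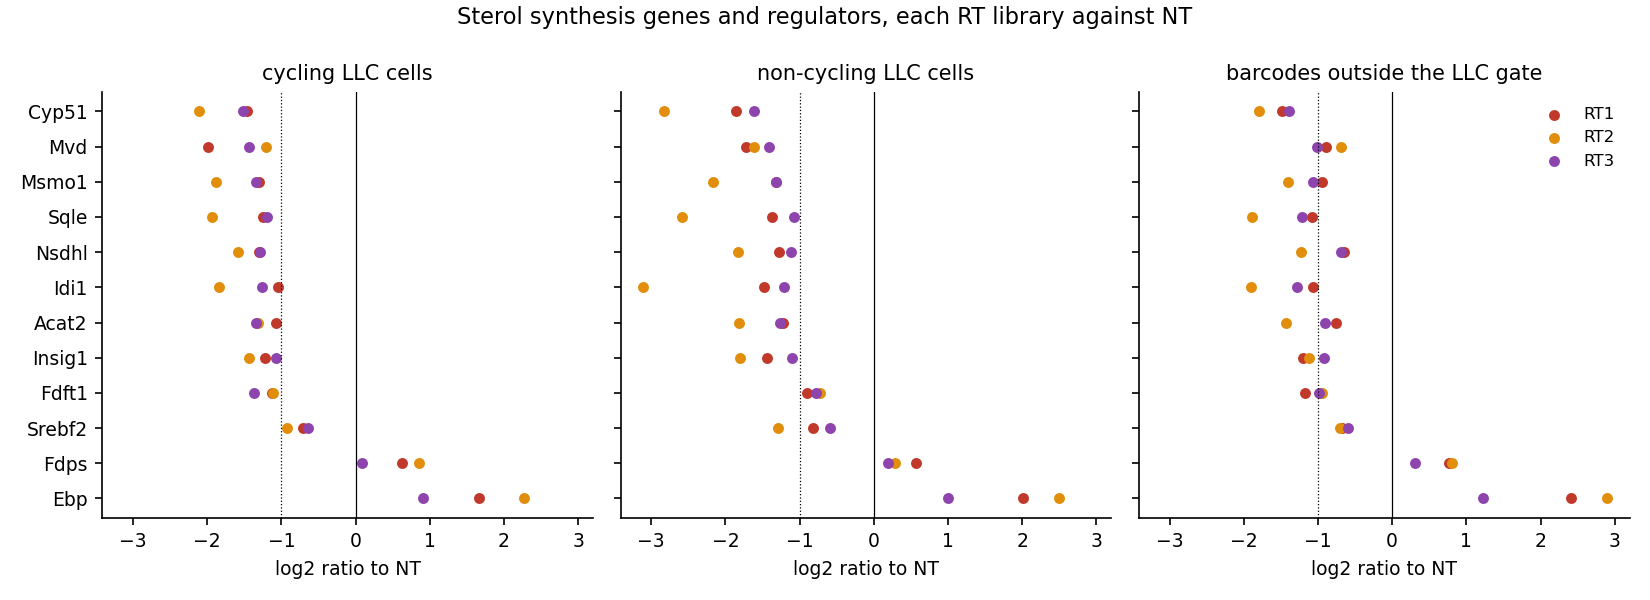
Log2 ratio to NT of the 12 sterol synthesis genes and regulators named in the text, in RT1, RT2 and RT3, for cycling LLC cells, non-cycling LLC cells and barcodes outside the LLC gate. The solid line marks NT, the dotted line 2-fold lower, and most genes lie left of NT in all 3 panels, with Ebp and Fdps to the right.

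Of the genes at 100 CPM or more in NT or in the RT mean, 22 were 2-fold higher in every RT library. Fth1, the heavy chain of the iron store ferritin, was at 2279 CPM in NT, 5782 in RT1, 5465 in RT2 and 5769 in RT3 (log2 ratio 1.31 ± 0.05). S100a4, a calcium-binding protein of motile cells, was at 3210.4 CPM in NT, 7295 in RT1, 7743 in RT2 and 6645 in RT3, S100a11 at 446 CPM in NT, 1162 in RT1, 1143 in RT2 and 962 in RT3. In each of them the RT libraries lay close together and apart from NT. The early response gene Ier3 was at 142 CPM in NT, 467 in RT1, 457 in RT2 and 317 in RT3, and the laminin gene Lamb1 at 72.1 CPM in NT, 279.6 in RT1, 186 in RT2 and 171 in RT3. Mrpl33 of the mitochondrial ribosome had the largest mean ratio (1.91 ± 0.41), followed by Rpl9 (1.84 ± 0.29) of the cytosolic ribosome, which has near-identical copies in the genome so that its reads may be split. Others among the 22 were Pttg1ip, S100a16, Atp5g1, S100a1, Rhox2h, 2610507B11Rik, Eif4ebp1, Rpl27, Ssr4, Atp6v0e, Mindy1, Ifi27, Ubald2 and Gabarap, with mean log2 ratios between 1.10 and 1.80. In the non-cycling cells Fth1 was at 3190.0 CPM in NT, 8354 in RT1, 8895 in RT2 and 8053 in RT3 and Mrpl33 at 59.1 CPM in NT, 256 in RT1, 292 in RT2 and 159.8 in RT3. In barcodes outside the gate Fth1 was at 3399 CPM in NT, 8454 in RT1, 8046 in RT2 and 7729 in RT3, and Mrpl33 at 54.3 CPM in NT, 225 in RT1, 249.9 in RT2 and 137 in RT3. Of the 22 genes 13 were 2-fold higher in every RT library in the non-cycling cells as well (1.99% of all genes there), and 13 in the barcodes outside the gate (2.54%), which include some with 1 or 2 UMIs of Rhox5.

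The 10 higher genes of largest ratio, ranked by the smallest in size of their 3 RT log2 ratios, had between 0 and 87 UMIs each in NT. Clec4e, a C-type lectin of myeloid cells, had 1 UMI in NT, 30 in RT1, 32 in RT2 and 40 in RT3 over all cycling cells, Slfn4 4 UMIs in NT, 61 in RT1, 56 in RT2 and 57 in RT3, Chil3 0 UMIs in NT, 20 in RT1, 36 in RT2 and 109 in RT3 and Ms4a4c 3 UMIs in NT, 20 in RT1, 26 in RT2 and 23 in RT3. Ccl8, a chemokine of macrophages, was at 0.835 CPM in NT, 10.5 in RT1, 11.5 in RT2 and 6.27 in RT3 in the cycling cells and at 463 CPM in NT, 2841 in RT1, 2083 in RT2 and 1624 in RT3 in barcodes outside the gate. Ccl6 was at 2.80 CPM in NT, 34.3 in RT1, 32.5 in RT2 and 20.5 in RT3 and Wfdc17 at 0.932 CPM in NT, 13.6 in RT1, 19.0 in RT2 and 7.14 in RT3. The RT libraries lay above NT in all of these, as they did for the macrophage marker sum and for Lyz2 (9.86 CPM in NT, 61.8 in RT1, 68.1 in RT2 and 35.2 in RT3), and the part of RNA from other cells was not tested further than by leaving out cells with their markers. When cells with 2 or more UMIs of any marker list were left out (1132, 772, 455 and 809 cells then remained in NT, RT1, RT2 and RT3), 132 genes were higher and 26 lower, of which 95 and 14 were among the 281 and 31. Deeper cells reach this limit sooner, so the setting does not remove cells by type alone. Matn1 (2 UMIs in NT, 29 in RT1, 53 in RT2 and 23 in RT3), the angiotensinogen gene Agt (0.482 CPM in NT, 7.07 in RT1, 4.62 in RT2 and 13.8 in RT3) and Rnf130 (5 UMIs in NT, 45 in RT1, 37 in RT2 and 42 in RT3) completed the 10. Epha8, Xcl1, Gm12758 and Il1rl2, at 1.12, 0.900, 1.03 and 1.41 CPM in NT, were among the 10 lower genes of largest ratio by the same ranking, beside Cyp51, Msmo1, Nsdhl and Mvd.

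**Figure D5:**
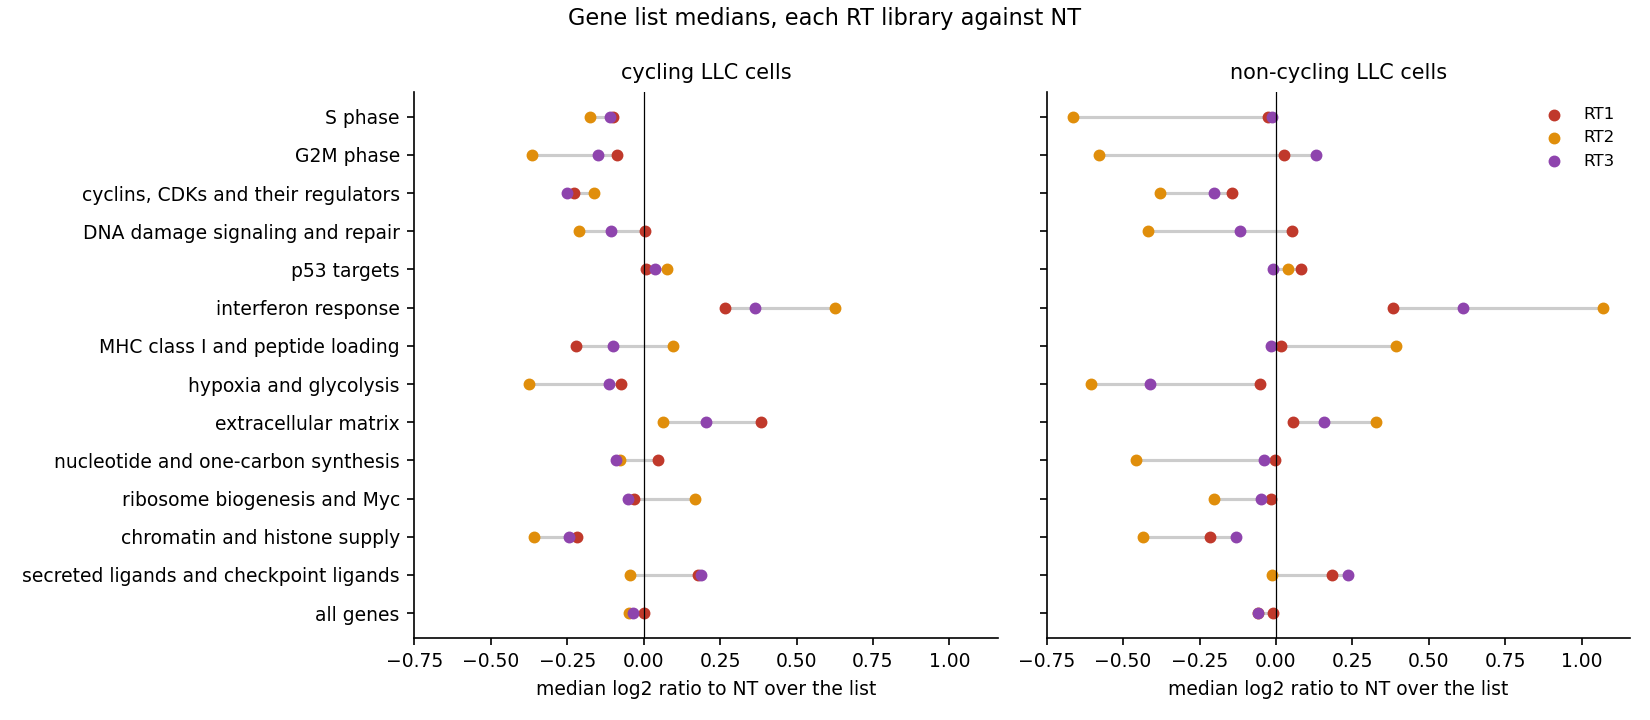
Median log2 ratio to NT over each of 13 gene lists and over all genes, for RT1, RT2 and RT3, in cycling (left) and non-cycling (right) LLC cells, with a grey line from the lowest to the highest library. The interferon response list lies right of NT in every library (0.27 to 0.63 in cycling cells), the chromatin and histone supply list left of it (-0.36 to -0.22), and all genes near 0.

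Division genes were slightly lower in the RT cycling cells as groups. Of 44 S list genes 26 lay below NT in every RT library and 8 above (median log2 ratio -0.14), and of 49 G2M list genes 31 lay below and 6 above (median -0.24, or -0.13 without RT2), against 33.4% below and 28.5% above over all genes. Since the S and G2M lists follow the genes of the rule, these counts describe the chosen cells. Pcna was at 753 CPM in NT, 686 in RT1, 655 in RT2 and 654 in RT3 and Kif11 at 86.6 CPM in NT, 65.3 in RT1, 53.4 in RT2 and 60.9 in RT3, each with NT above all RT libraries. Dlgap5, a spindle gene, was the exception in the G2M list past 2-fold, at 14.7 CPM in NT, 45.9 in RT1, 40.4 in RT2 and 31.8 in RT3. Cks1b (699 CPM in NT, 740.4 in RT1, 656 in RT2 and 727 in RT3) did not separate the groups. Of the 21 genes of the chromatin and histone supply list 16 lay below NT in every RT library and 1 above (median -0.29), among them the cohesin gene Smc1a, at 203 CPM in NT, 119.7 in RT1, 115 in RT2 and 144 in RT3. The tubulin gene Tuba1b, which this list also holds, was at 3082 CPM in NT, 2022 in RT1, 2142 in RT2 and 2046 in RT3. Of 31 cyclin, CDK and regulator genes 18 lay below and 5 above (58.1% and 16.1%, median -0.19). Cdk4 was at 349 CPM in NT, 224 in RT1, 276 in RT2 and 244 in RT3, below NT throughout.

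Genes of the damage response did not form 1 direction. Cdkn1a, the p53 target that encodes p21, was at 24.4 CPM in NT, 49.0 in RT1, 47.3 in RT2 and 40.6 in RT3 (RT mean 45.6 ± 4.42, SD, n = 3), above NT in every RT library with an NT interval of 22.7 to 26.2 CPM. Sesn1 (10.5 CPM in NT, 30.4 in RT1, 22.7 in RT2 and 21.9 in RT3) and Plk2 (1.22 CPM in NT, 5.81 in RT1, 4.47 in RT2 and 2.73 in RT3) were the 2 of 25 p53 targets 2-fold higher in every RT library, against 2.42% of all genes, and Mdm2, whose product degrades p53, was at 62.1 CPM in NT, 82.3 in RT1, 65.5 in RT2 and 78.7 in RT3. Against these, Btg2 was at 47.5 CPM in NT, 26.8 in RT1, 32.6 in RT2 and 34.1 in RT3 and Tnfrsf10b, a death receptor, at 55.7 CPM in NT, 31.1 in RT1, 31.6 in RT2 and 35.0 in RT3, below NT in every RT library. Over 25 p53 targets 10 lay above NT in every RT library and 8 below (median 0.05), against 28.5% and 33.4% of all genes, and the sign of this median turned under 4 of 8 alternatives. Of 41 DNA damage and repair genes 17 lay below NT (41.5%, against 33.4% of all genes) and 8 above (19.5%, against 28.5%), with a median of -0.13 that was -0.035 without RT2. Lig1, which joins Okazaki fragments, was at 38.5 CPM in NT, 94.5 in RT1, 133 in RT2 and 63.9 in RT3, and H2afx, below NT throughout, at 179 CPM in NT, 84.1 in RT1, 123 in RT2 and 110.5 in RT3. Of 22 nucleotide synthesis genes 6 lay above NT (27.3%) and 9 below (40.9%), with a median of -0.03, and of 19 ribosome biogenesis genes 8 lay above (42.1%) and 5 below (26.3%), with a median of -0.02, where all genes had -0.04. The sign of each of these list medians turned under 1 of 8 alternatives.

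Of the 13 lists the interferon response genes had the highest median over the mean ratios of the RT libraries (0.40), although in RT1 the matrix list was higher. In the cycling cells 18 of 32 lay above NT in every RT library and 3 below, against 28.5% and 33.4% of all genes, with medians of 0.27, 0.63 and 0.36 in RT1, RT2 and RT3. Ifit1 was at 6.62 CPM in NT, 24.2 in RT1, 28.7 in RT2 and 25.7 in RT3 (log2 ratio 1.98 ± 0.13). Cxcl10, which encodes a chemokine for T cells, was at 253 CPM in NT, 337 in RT1, 426 in RT2 and 414 in RT3, and Ifitm3 at 1097 CPM in NT, 1245 in RT1, 1218 in RT2 and 1452 in RT3. Ifit3, Ifit3b, Usp18, Oasl1 and Ifi44 were 2-fold higher in every RT library too (6 of 32 with Ifit1, against 2.42% of all genes), all 5 of them at RT means of 12.6 CPM or less. Irf1, a transcription factor of the interferon gamma response, went against the group at 623 CPM in NT, 318 in RT1, 375 in RT2 and 483 in RT3, as did Gbp2 at 157 CPM in NT, 64.8 in RT1, 156 in RT2 and 86.4 in RT3. In the non-cycling cells, which share the libraries, 24 of 32 lay above NT in every RT library and 1 below, against 26.7% and 34.1% of all genes there, and Ifit1 was at 23.1 CPM in NT, 73.3 in RT1, 134 in RT2 and 89.0 in RT3. The difference between the classes in this ratio was not tested. The macrophage marker sum moved with the list, from 40.3 CPM in NT to between 89.9 and 144 CPM in RT, and its part was not tested. Among MHC class I genes 5 of 14 lay above and 4 below (35.7% and 28.6%, median -0.05), with Psmb9 of the immunoproteasome at 14.9 CPM in NT, 33.8 in RT1, 89.2 in RT2 and 23.7 in RT3.

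Matrix genes lay above NT in every RT library for 11 of 20 and below for 2 (median 0.26), against 28.5% and 33.4% of all genes, with medians of 0.38 in RT1, 0.06 in RT2 and 0.20 in RT3. Fn1 was at 149.6 CPM in NT, 491 in RT1, 251 in RT2 and 376 in RT3, Lum at 8.16 CPM in NT, 100.1 in RT1, 27.4 in RT2 and 29.1 in RT3 and Dcn at 24.4 CPM in NT, 123 in RT1, 35.1 in RT2 and 98.4 in RT3, each lowest in NT. Lum, Col1a1 and Col1a2 were 2-fold higher in every RT library (3 of 20, against 2.42% of all genes), the collagens at RT means of 6.39 and 3.01 CPM. The fibroblast marker sum, mostly Dpt, moved in the same direction (238 CPM in NT, 482, 328 and 568 in RT1, RT2 and RT3), and its part was not tested. Hypoxia and glycolysis genes lay below NT for 12 of 25 (48% against 33.4%) and above for 3 (12% against 28.5%), with medians of -0.07 in RT1, -0.38 in RT2 and -0.11 in RT3. The median of the mean ratios was -0.23, and -0.093 without RT2. Pgk1 was at 2358 CPM in NT, 1884 in RT1, 1439 in RT2 and 1874 in RT3 and, against the list, Ndrg1 at 82.3 CPM in NT, 220.2 in RT1, 119 in RT2 and 184 in RT3.

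Of 22 secreted and checkpoint ligand genes 9 lay above NT in every RT library and 5 below (median 0.09), against 28.5% and 33.4% of all genes. The sign of this median turned under 4 of 8 alternatives, at -0.091 with thinned cells, -0.019 without cells of other types, -0.053 with the fibroblast list not used for that, and -0.057 without RT3. Csf1 was at 157 CPM in NT, 218 in RT1, 191 in RT2 and 238 in RT3 and Mif, which binds CD74, at 444 CPM in NT, 759.8 in RT1, 853 in RT2 and 619 in RT3, both above NT in every RT library. Ccl5, a chemokine for T cells and monocytes, was 2-fold higher in each RT library, at 2.70 CPM in NT, 18.8 in RT1, 16.9 in RT2 and 15.7 in RT3. Ccl2, the monocyte chemokine, was at 2237 CPM in NT, 2535 in RT1, 1589 in RT2 and 2426 in RT3, with NT inside the range of the RT libraries. Cxcl1 was at 3579 CPM in NT, 2441 in RT1, 2134 in RT2 and 3178 in RT3 and Cd274 at 13.7 CPM in NT, 8.14 in RT1, 13.2 in RT2 and 9.90 in RT3, in both cases below NT in every RT library. Spp1, which encodes osteopontin, was at 1799.8 CPM in NT, 2914 in RT1, 1754 in RT2 and 2616 in RT3 and did not separate the groups.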

How the data were processed

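Single-cell RNA counts of 4 LLC tumor libraries were analysed. The authors processed the reads of the SeekOne MM 3′ kit with SeekOne Tools and deposited raw UMI counts per gene and barcode, in a table for each library that held only barcodes called as cells. The submitters' processing notes also name STAR 2.5.1b, featureCounts, Subread 1.6.4, Cell Ranger and GRCm39 (mm39), without their roles. The RT2 table lists 18605 genes by symbol and holds no barcode above a mitochondrial share of 11.95%, so it seems to have been filtered before deposit. The tables were joined on the 18605 common symbols.

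Cells were gated as described above. UMI counts were summed per library and class, since cells of 1 library are not replicates, and CPM are UMIs in each 1000000 of the sum. Cycling against non-cycling cells and G2M-side against S-side cells were tested with edgeR 4.0.16 (R 4.3.3; TMM, filterByExpr, glmQLFit and glmQLFTest, library as a block, Benjamini-Hochberg adjusted p under 0.05). The samples are separate tumors, but NT is 1 pooled library, so RT against NT used the rule of size, with a gene without UMIs set at a floor of 3 counts. DESeq2 1.42.0, thinning to 2000 UMIs, matched UMI totals, other thresholds, cells without markers of other types and each library left out served as alternatives. Tested on simulated data, the first comparison recovered 94% of genes changed 1.5-fold and 97% of those changed 2-fold, on 12389 genes, and the second 92% and 98%, on 11534 genes. The simulated spread was a set value not estimated from these data, and only 100 genes, all above a minimum count, were changed at each fold. Recovery in the real data, where far more genes differed and many were rare, is therefore not known from it.

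The members, the 13 gene lists and the 7 marker lists were chosen with earlier results of these data known. Named genes were those of the rule, the 12 per direction (first comparison), 8 (second) and 10 (RT against NT) of largest change, and members of the lists. Those of the first and second comparison were at 50 CPM or more in the higher class and changed alike in all 4 libraries. The 10 of RT against NT were ranked by the smallest in size of the RT log2 ratios. Genes at 100 CPM or more and the sterol list were chosen after values were seen. Some genes that met these rules count in the totals and are not reported here by name. Promoters came from RefSeq (GRCm38.p6), for 32 of 44 S list and 42 of 49 G2M list genes. Intervals are exact at 95% and, like floors, cover counting error only. Python 3.11.15, numpy 2.4.6, scipy 1.17.1, pandas 2.3.3 and matplotlib 3.10.9 were used.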

Additional observations from a re-analysis of the deposited data

How the results depend on the processing

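No paired analysis was possible because NT has only replicate 1, so RT against NT could not be blocked. For cycling against non-cycling cells the library was the replicate block, and with no replicate block 1962 genes were higher and 2140 lower instead of 3643 and 4397. With 1 library left out they were 3381 to 3736 higher and 3788 to 4041 lower. For G2M-side against S-side cells (1549 and 1658) DESeq2 called 703 and 805 genes, thinning to 2000 UMIs left 591 and 570, and leaving out 1 library gave 1074 to 1273 and 1271 to 1408. For RT against NT (281 higher, 31 lower) a minimum of 100 UMIs gave 128 and 18, and thinning 142 and 20. Without cells holding 2 or more UMIs of other cell types 132 were higher, and 167 with the fibroblast list not used, a setting chosen after seeing the data. With 1 RT library left out 345 to 509 were higher and 40 to 88 lower. The p53 target median of 0.05 reversed to -0.045 (minimum of 100 UMIs), -0.10 (thinned), -0.065 (without cells of other types) and -0.027 (fibroblast list not used), and ran from 0.022 to 0.11 with 1 RT library left out. The secreted ligand median of 0.09 turned to -0.091 (thinned) and -0.053 (without other types, fibroblast list not used) and ran from -0.057 to 0.14, and was -0.019 without cells of other types. The S phase median of -0.14 moved to -0.088 (without other types) and ran from -0.13 to -0.10. Without RT2 the DNA damage and repair median of -0.13 was -0.035 (-0.044 without other types), the hypoxia and glycolysis median of -0.23 was -0.093, and the G2M median of -0.24 was -0.13. The MHC class I median of -0.05 ran from -0.16 to -0.00059 over its alternatives. The causes were not tested beyond fewer UMIs or cells. Over the 13 list medians and 8 alternatives each, the sign turned for 10 of 104 values, 4 each in the p53 target and secreted ligand lists and 1 each in the nucleotide synthesis and ribosome biogenesis lists, and for none in the other 9 lists. The cycling share lay below NT in every RT library under each threshold tried. Counts of rare genes are limited by depth, and 1 NT library leaves the spread between control tumors unknown.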
